A study of Homo sapiens with 48 samples.

Results

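Aldehyde dehydrogenases were examined in PSN1, a BRCA1/2-proficient human PDAC (pancreatic ductal adenocarcinoma) cell line, before and after acquired resistance to the PARP inhibitor Talazoparib. The genes were listed by symbol: ALDH1A1, ALDH1A2, ALDH1A3, ALDH1B1, ALDH1L1, ALDH1L2, ALDH2, ALDH3A1, ALDH3A2 and ALDH3B1, which are 10 of the 20241 genes in the deposited RNAseq table. Parental PSN1 cells were untreated. TalaR-M cells are resistant PSN1 cells that were kept in drug, at 50 nM Talazoparib for 4 months according to the labels. TalaR-DF cells come from resistant cells that were then grown in drug-free medium over a period of 4 weeks. The paper reports that PSN1 cells regained nearly parental sensitivity to Talazoparib over this period. The word resistant, where it covers TalaR-DF cells below, therefore names their origin and not their drug response. Each group had 3 libraries, 9 in all, and all cells were grown in RPMI1640 with 10% serum. Resistant cells were obtained by stepwise drug selection of 1 line, and whether they are a pool or a clone is not stated. The sources name triplicate harvests but no separate cultures, so that p-values measure the spread between these harvests only. RNAseq of the other cell lines in the series was not analysed here, nor were the PSN1 libraries labelled as DMSO treated or Talazoparib treated.

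Aldehyde dehydrogenases oxidise aldehydes to acids with NAD or NADP as the electron acceptor, and so clear reactive products of alcohol, lipid and amino acid breakdown. The ALDH1A enzymes turn retinaldehyde into retinoic acid, the ligand of nuclear retinoid receptors, and ALDH1L enzymes oxidise formyl-tetrahydrofolate in the folate cycle. High ALDH activity is widely used to mark tumor cells with stem-like properties, in pancreatic tumors among others.

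Expression is given as log2 CPM, the log2 of a gene's reads after scaling all libraries to 1 common size, and 0 means at most 1 CPM. Reads on genes above 1 CPM summed to between 8387755 (TalaR-M replicate 2) and 14973847 (TalaR-M replicate 1) per library, and 1 CPM stood for 6.97 and 14.54 reads in these libraries. TalaR-M replicate 2 stood apart from the other libraries. It differed more than 2-fold from the other TalaR-M libraries in 4858 of 10512 expressed genes (46.2%), whereas TalaR-M replicates 1 and 3 differed that much from each other in 11 genes, and any 2 parental or TalaR-DF replicates in 1 to 23. Its deviation went with transcript length, with a median of 0.80 on the log2 scale over the shortest transcripts (the lowest 25% by length) and -1.30 over the longest 25%, and the part of length and of the lower depth in the results was not tested. Fold changes printed for the ALDH, aldehyde and retinoid genes are given with and without this library where it moved them across the threshold or by over 1.5 times.

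Of the duct epithelial markers, 8 of 9 were expressed, KRT8 most abundantly (a mean of 903.7 CPM), whereas CDH1 (E-cadherin) was listed at 0 in all 9 libraries. Their summed level was between 1230 and 1296 CPM in parental, 1967, 5893 and 1812 CPM in TalaR-M and between 1039 and 1176 CPM in TalaR-DF cells. In TalaR-M against parental cells KRT19 and EPCAM were called higher and none lower (1 at an unadjusted p under 0.05 in limma). In TalaR-DF against parental cells KRT7 and MUC1 were called lower and none higher (1 at an unadjusted p under 0.05 in limma). These calls used the thresholds given below, where the shares over all genes also stand. Of 9 fibroblast markers, 7 were expressed, with COL3A1 the most abundant (1482 CPM), and THY1 and ACTA2 were at 0 throughout. The fibroblast markers summed to between 1795 and 1868 CPM in parental, 3408, 1225 and 3350 CPM in TalaR-M and between 912.4 and 1028 CPM in TalaR-DF cells. Of the 7, in TalaR-M against parental cells 2 were called higher (COL1A1, and DCN, which was above the floor in TalaR-M libraries alone) and 4 lower (COL1A2, LUM, PDGFRA and PDGFRB) at an adjusted p under 0.05 in limma and 2-fold, beside 5.53% and 7.72% of all genes, and in TalaR-DF cells none was called higher (0 at an unadjusted p under 0.05 in limma) and 4 lower, beside 2.25% and 7.49%. All 4 endocrine markers and 4 of 5 leukocyte markers were at 0, and no library had more than 5.32 CPM of summed acinar, leukocyte or hepatocyte markers or more than 15.1 CPM of endothelial markers. The part of these shifts in the ALDH results was not tested, and bulk RNA cannot tell fewer expressing cells from less RNA per cell.

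Of the retinaldehyde-oxidising genes, ALDH1A2 and ALDH1A3 moved in opposite directions, and their promoters are shown here for that reason. RefSeq promoter sequence (GRCh38.p14) was matched for 7 of the 10 genes by symbol. The 250 bases before the start site are printed 5′ to 3′, and capitals mark GCGTG (the core bound by the aryl hydrocarbon receptor), CAGGTG (an E-box) and CCAAT on either strand. ALDH1A2 lies on the minus strand, with its farther upstream start preceded by chr15:58065712-58065961, and ALDH1A3 on the plus strand, with chr15:100879581-100879830 before its start.
ALDH1A2: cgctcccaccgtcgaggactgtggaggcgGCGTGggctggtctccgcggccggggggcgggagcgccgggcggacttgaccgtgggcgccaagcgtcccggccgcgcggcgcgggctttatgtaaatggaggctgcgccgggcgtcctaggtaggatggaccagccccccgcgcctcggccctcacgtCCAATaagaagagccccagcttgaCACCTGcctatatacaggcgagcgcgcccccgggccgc
ALDH1A3: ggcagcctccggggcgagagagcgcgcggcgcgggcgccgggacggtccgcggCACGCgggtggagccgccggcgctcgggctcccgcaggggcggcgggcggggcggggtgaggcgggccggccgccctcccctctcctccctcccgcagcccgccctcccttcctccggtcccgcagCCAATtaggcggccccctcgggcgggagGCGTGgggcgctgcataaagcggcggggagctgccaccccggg
The ALDH1A2 window held GCGTG 221 bases before the start, CCAAT 62 bases before it and CAGGTG, read on the other strand, 38 bases before it. The ALDH1A3 window held GCGTG at 43 bases and, on the other strand, at 197 bases, and CCAAT at 71 bases, with no CAGGTG. Neither window held TATAAA or TGACNNNGC, and the motifs found did not overlap. Such matches are common: of 35116 promoter windows of this length, 32.2% held GCGTG, 17.5% CAGGTG, 32% CCAAT, 10.9% TGACNNNGC and 10.7% TATAAA. Both printed windows were rich in GC, at 72.8% and 82.4% against a median of 58% over all promoters, and held 33 and 38 CpG against a median of 11. RefSeq gives ALDH1A2 another start, after chr15:58014024-58014273, where the window had 41.6% GC, 1 CpG and, of these motifs, CAGGTG alone, and the start used in PSN1 cells was not measured. A match is a description of letters and not of a bound site.

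Expression above 1 CPM was found for 8 of the 10 genes, and these 8 were tested in a fit over 12471 genes. ALDH1A1, a retinaldehyde-oxidising enzyme, and ALDH1L1, the cytosolic folate enzyme, were at 0, the floor of the deposited values, in all 9 libraries, so that neither exceeded 1 CPM in any group. A gene was called at an adjusted p under 0.05 (limma, Benjamini-Hochberg) and a change of at least 2-fold. Against parental cells, 4 of the 8 genes were called in TalaR-M cells: ALDH1A3 and ALDH3A1 rose, and ALDH1A2 and ALDH2 fell. In this comparison 13.3% of all genes tested were called, 5.53% higher and 7.72% lower. ALDH1A2 and ALDH2 were also called lower in TalaR-DF cells against parental cells, where 9.73% of all genes were called, 2.25% higher and 7.49% lower, and none of the 8 was called higher (3 were higher at an unadjusted p under 0.05 in limma). Between TalaR-M and TalaR-DF cells ALDH3A1 alone of the 8 was called, higher in TalaR-M cells, and 6.93% of all genes were called, 5.29% higher and 1.64% lower. The comparisons of TalaR-M and TalaR-DF with parental cells share the parental libraries, and those of TalaR-M share the TalaR-M libraries. ALDH1A2 was tested through its parental libraries alone, so that its calls in these counts are a description.

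**Figure D1:**
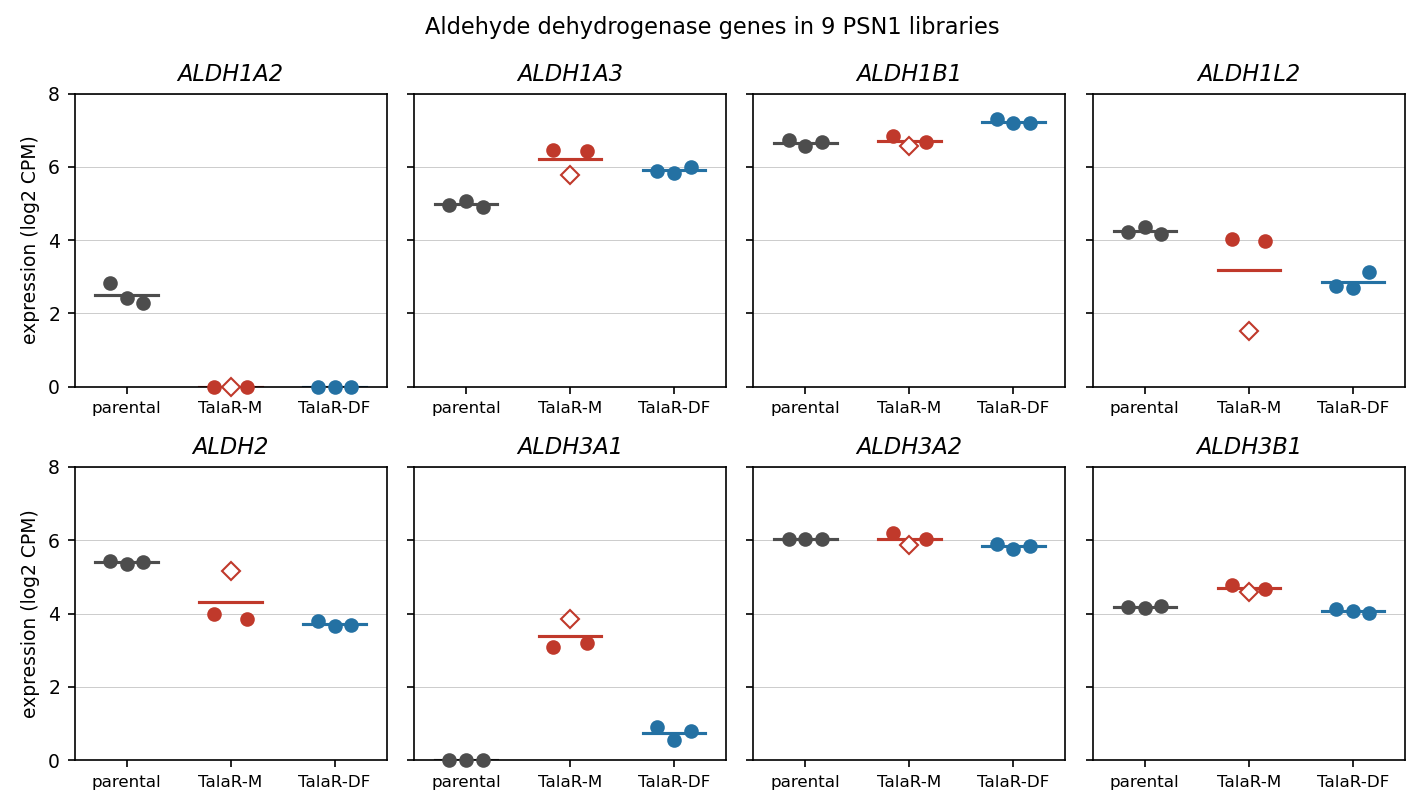
Expression of the 8 tested aldehyde dehydrogenase genes (y axis, log2 CPM) in the 9 libraries analysed, by group (x axis), with 1 point per library, a line at the group mean and an open diamond for TalaR-M replicate 2. ALDH1A2 is at 0 in both resistant groups, ALDH3A1 is at 0 in parental cells only, and the diamond lies far from the other TalaR-M points for ALDH1L2 and ALDH2.

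ALDH1A2, a retinaldehyde-oxidising enzyme, was above the floor in parental cells only. It measured 2.84, 2.41 and 2.28 log2 CPM in the 3 parental libraries, from 104, 73 and 63 reads, and 0 in each of the 3 TalaR-M and 3 TalaR-DF libraries. All parental libraries were thus high and all resistant libraries at the floor, with no overlap. In either resistant group the level was at least 5.69-fold lower (log2 fold change -2.51), as computed against 1 CPM. ALDH1A2 was tested only because the parental libraries exceeded 1 CPM, and the 6 values at the floor show no spread of their own, so that its 2 calls are a description and no p is given. No fold can be given between the resistant groups, since both were at the floor, and ALDH1A2 stayed there in the drug-free libraries.

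ALDH1A3, which also makes retinoic acid, went the other way. Its expression was 4.96, 5.07 and 4.90 log2 CPM in parental, 6.47, 5.77 and 6.44 in TalaR-M and 5.89, 5.84 and 5.995 in TalaR-DF libraries. Every resistant library was above every parental library, and TalaR-M replicate 2 was the lowest of the 6 resistant ones. The rise in TalaR-M cells was 2.37-fold (log2 fold change 1.25, adjusted p = 0.0026), and 2.78-fold without replicate 2. In TalaR-DF cells ALDH1A3 was 1.91-fold above parental cells (log2 fold change 0.93, standard error 0.20, adjusted p = 0.0124), short of 2-fold. TalaR-M and TalaR-DF libraries overlapped and differed by 0.31 on the log2 scale (adjusted p = 0.293), or by 0.54 without replicate 2 (adjusted p = 1.22e-04), again under 2-fold.

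ALDH3A1, a cytosolic enzyme that oxidises aromatic and lipid-derived aldehydes, was at the floor in parental cells and above it in both resistant groups. It was at 0 in the 3 parental libraries, at 3.08, 3.85 and 3.20 log2 CPM in TalaR-M (132, 108 and 128 reads) and at 0.90, 0.54 and 0.79 in TalaR-DF (26, 19 and 21 reads). The 3 groups did not overlap: TalaR-M libraries were highest, TalaR-DF libraries were just above the floor, and TalaR-M replicate 2 was the highest of all. Expression exceeded the parental floor at least 10.4-fold in TalaR-M cells (log2 fold change 3.38, standard error 0.21, adjusted p = 1.198e-05), and at least 8.82-fold without replicate 2. TalaR-M cells were also 6.20-fold above TalaR-DF cells (log2 fold change 2.63, adjusted p = 1.617e-04), and 5.27-fold without replicate 2. The TalaR-DF level was at least 1.68-fold above the parental level (log2 fold change 0.74, adjusted p = 0.0414) and was not called. The parental values at the floor show no spread of their own, so the p-values against parental cells do not measure spread there.

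ALDH3A2 and ALDH3B1 belong to the same family of ALDH3 genes, and neither was called in any comparison. ALDH3A2, the fatty aldehyde dehydrogenase of the endoplasmic reticulum, lies at chr17:19648136-19685760, on the same chromosome as ALDH3A1 at chr17:19737984-19748943 (hg38, GENCODE 44). Its expression stayed between 5.75 and 6.20 log2 CPM in all 9 libraries, and its log2 fold changes were 0.01 in TalaR-M and -0.20 in TalaR-DF cells against parental cells (adjusted p = 0.984 and 0.351). The 95% interval of its change in TalaR-M cells ran from -0.28 to 0.29. ALDH3B1, which acts on lipid aldehydes at membranes, measured 4.17, 4.16 and 4.21 log2 CPM in parental, 4.79, 4.59 and 4.68 in TalaR-M and 4.13, 4.08 and 4.02 in TalaR-DF libraries. The TalaR-M libraries were the highest, without overlap, by 0.51 against parental (adjusted p = 0.022) and 0.61 against TalaR-DF cells (adjusted p = 0.0175) on the log2 scale, under 2-fold in both.

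ALDH2 and ALDH1B1 are mitochondrial enzymes that oxidise acetaldehyde, and of these ALDH2 alone was called. ALDH2 measured 5.43, 5.35 and 5.41 log2 CPM in parental, 3.98, 5.15 and 3.85 in TalaR-M and 3.80, 3.66 and 3.68 in TalaR-DF libraries. All resistant libraries were below all parental ones, but TalaR-M replicate 2 lay next to the parental range and the 2 other TalaR-M libraries next to the TalaR-DF range. ALDH2 fell by 1.69 on the log2 scale in TalaR-DF cells (3.22-fold, standard error 0.31, adjusted p = 0.00699). In TalaR-M cells it fell by 1.07 (2.10-fold, adjusted p = 0.041), and by 1.49 (2.80-fold, adjusted p = 9.135e-08) without replicate 2. The TalaR-M call was lost in 13 of 18 alternative fits, with adjusted p-values of up to 0.124, and the TalaR-DF call in none of 18. The difference between the resistant groups, 0.62 on the log2 scale, did not pass the test (adjusted p = 0.221).

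ALDH1B1 measured 6.73, 6.58 and 6.68 log2 CPM in parental, 6.84, 6.57 and 6.68 in TalaR-M and 7.32, 7.18 and 7.20 in TalaR-DF libraries. The TalaR-DF libraries were the highest, while parental and TalaR-M libraries overlapped. The TalaR-DF level was above parental cells by 0.57 (adjusted p = 0.0126) and the TalaR-M level below TalaR-DF cells by 0.53 (log2 fold change -0.53, adjusted p = 0.0258) on the log2 scale, neither reaching 2-fold. The log2 CPM of ALDH1B1 minus that of ALDH2 within a library, which does not depend on how libraries are scaled and is not per length, was 1.29, 1.23 and 1.26 in parental libraries. This difference was 2.86, 1.42 and 2.84 in TalaR-M and 3.52, 3.52 and 3.53 in TalaR-DF libraries. The difference was thus largest in TalaR-DF libraries, and in TalaR-M replicate 2 it was close to the parental one.

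ALDH1L2, the mitochondrial enzyme that oxidises formyl-tetrahydrofolate, deviated most in the library that stood apart, by -2.49 on the log2 scale from the other TalaR-M libraries. It measured 4.23, 4.36 and 4.16 log2 CPM in parental, 4.03, 1.52 and 3.98 in TalaR-M and 2.75, 2.69 and 3.12 in TalaR-DF libraries. TalaR-M replicate 2, with 21 reads, was the lowest of the 9, and the 2 other TalaR-M libraries, with 255 and 221 reads, were near the parental range. With all libraries ALDH1L2 was not called, at log2 fold changes of -1.07 in TalaR-M (standard error 0.60, adjusted p = 0.224) and -1.39 in TalaR-DF cells (adjusted p = 0.166). Between TalaR-M and TalaR-DF cells it was also not called with all libraries, at 0.32 (adjusted p = 0.716). Without replicate 2 the TalaR-DF change was the same in size and was called (adjusted p = 1.644e-06), the TalaR-M change was -0.24 (adjusted p = 0.146), and TalaR-M exceeded TalaR-DF cells by 1.15 on the log2 scale (adjusted p = 4.009e-05). The count of ALDH genes called without this library became 3 in TalaR-DF against parental cells and 2 in TalaR-M against TalaR-DF cells, where 11.4% and 8.36% of all genes were called. In TalaR-M against parental cells it stayed at 4, beside 13.9% of all genes.

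**Figure D2:**
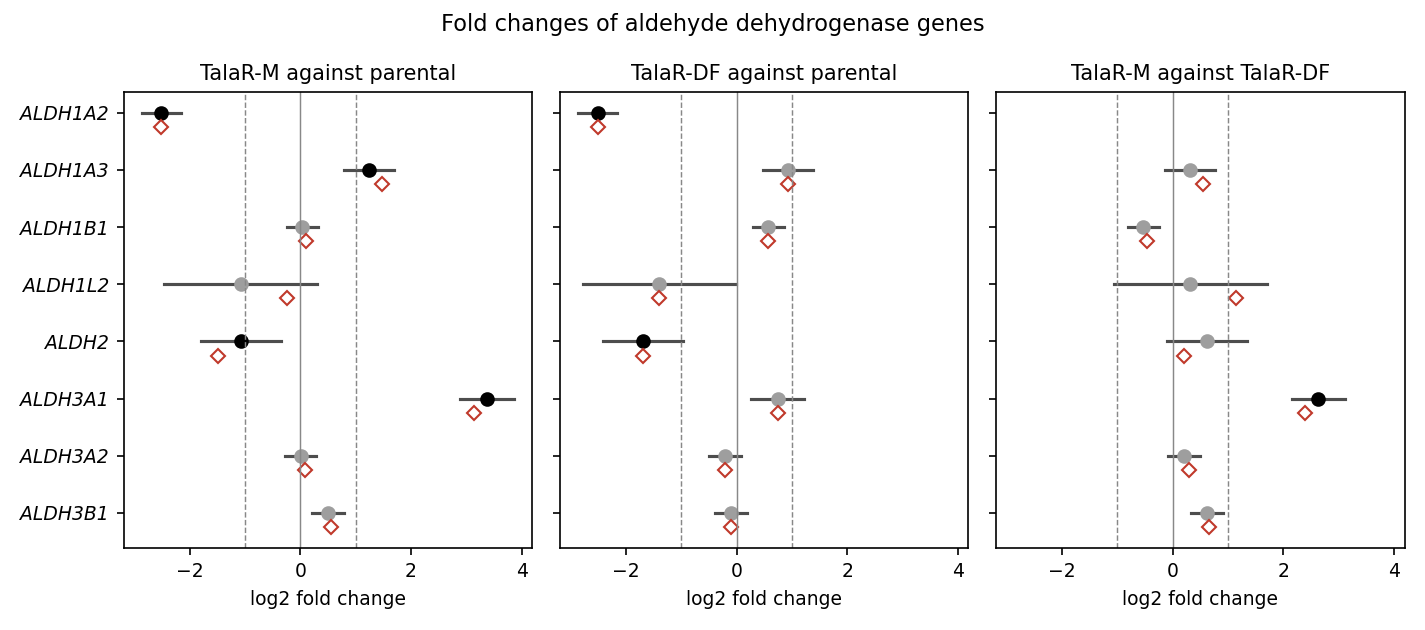
Log2 fold change (x axis) of the 8 genes (y axis) in each of the 3 comparisons, with bars for the 95% interval of the limma fit, black points for genes called and grey points for the others. Dashed lines mark 2-fold, red diamonds the value without TalaR-M replicate 2, and ALDH1A2 has no point where both groups were at 0. ALDH3A1 has the highest fold change in TalaR-M cells, and ALDH1L2 has the widest intervals.

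Against parental cells, the groups did not overlap for 6 of the 8 genes in TalaR-M and for 8 of 8 in TalaR-DF cells, and the resistant groups did not overlap with each other for 4 of 8. Among all genes tested the groups did not overlap for 49.8%, 68.5% and 40.8% in these comparisons. The median log2 fold change of the 8 genes was 0.02, -0.15 and 0.32, beside -0.09, 0.01 and -0.09 over all genes tested. The third median counts ALDH1A2 at 0, since both resistant groups were at the floor for it. ALDH1A2 passed the filter on low values through its parental libraries alone, so its lack of overlap with them is a description. The medians against parental cells include its bound. The 8 genes did not share 1 direction.

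Levels were compared between the genes per kb of the canonical transcript. ALDH1B1 was the most abundant in each group, at 5.06 ± 0.07, 5.10 ± 0.14 and 5.64 ± 0.07 log2 CPM per kb in parental, TalaR-M and TalaR-DF cells (SD, n = 3 each). In parental cells ALDH3A2 (4.14), ALDH1A3 (3.18), ALDH3B1 (2.69), ALDH2 (2.14), ALDH1L2 (1.36) and ALDH1A2 (0.75 ± 0.29) followed, each step larger than the spread of its neighbours. In TalaR-M cells ALDH1A3 stood second at 4.43 ± 0.40, a level not separated from ALDH3A2 (4.15 ± 0.16) beyond their spread. ALDH3B1 (3.20 ± 0.10) and ALDH3A1 (2.66 ± 0.41), whose libraries overlapped, came next, and ALDH2 (1.07 ± 0.72) and ALDH1L2 (0.28 ± 1.44) were not separated from each other. Without replicate 2 their order turned, with ALDH1L2 at 1.11 and ALDH2 at 0.66, while ALDH1A3 (4.66) lay above ALDH3A2 (4.23) and ALDH3B1 (3.25) above ALDH3A1 (2.43) without overlap of the 2 libraries. In TalaR-DF cells ALDH1A3 (4.12 ± 0.08) was above ALDH3A2 (3.94 ± 0.07) per canonical length, but both were at 5.29 per coding length, and ALDH3B1 (2.59) followed. ALDH2 (0.45 ± 0.07), ALDH3A1 (0.03 ± 0.18) and ALDH1L2 (-0.04 ± 0.23) were lowest, and the order of ALDH3A1 and ALDH1L2 was not separated beyond their spread. ALDH1B1 also led with the longest transcript or the coding length of each gene, but ALDH2, whose canonical transcript of 9561 bases holds 1551 coding bases, was at position 3 in parental cells per coding length, ahead of ALDH1A3 at position 4.

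**Figure D3:**
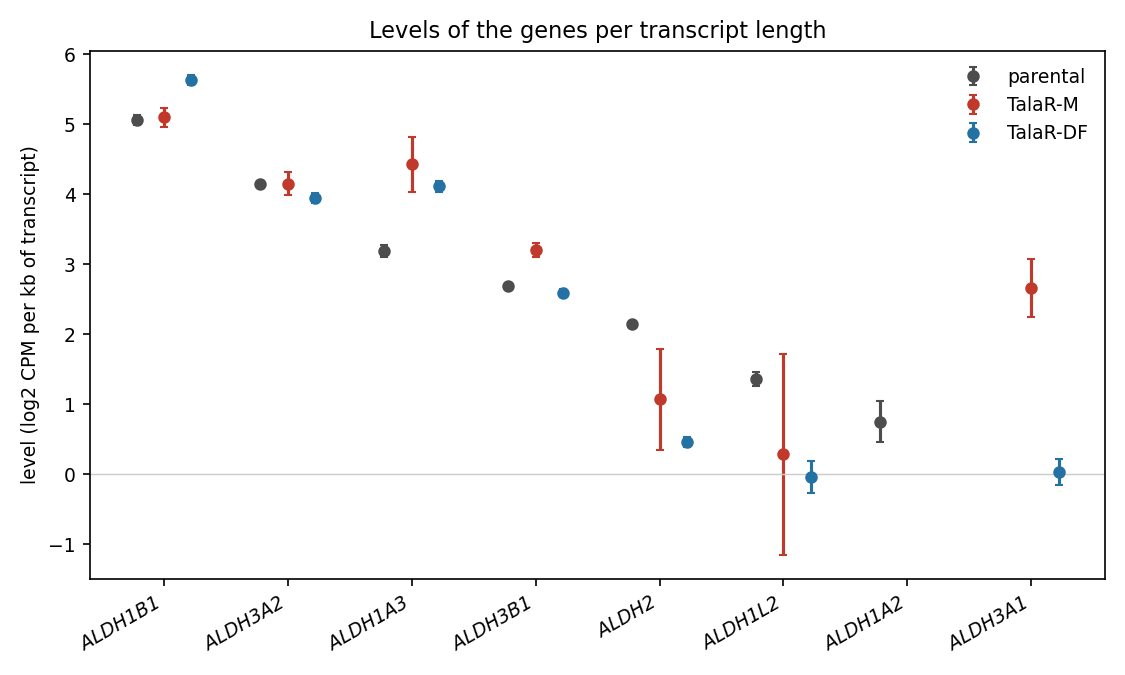
Level per transcript length (y axis, log2 CPM per kb of the canonical transcript) of each gene (x axis) in parental, TalaR-M and TalaR-DF cells, with points for means and bars for the SD of 3 libraries. Genes at 0 in a group have no point. ALDH1B1 leads in every group, ALDH1A3 moves from the third to the second place, and ALDH3A1 enters in TalaR-M cells.

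Of 9 other aldehyde dehydrogenases, ALDH3B2 and ALDH8A1 were at 0 in all libraries and 7 were tested. ALDH4A1, a mitochondrial enzyme of proline breakdown, measured 1.59, 1.11 and 1.23 log2 CPM in parental, 2.49, 3.25 and 2.28 in TalaR-M and 1.23, 1.61 and 1.24 in TalaR-DF libraries. The TalaR-M libraries were highest without overlap, and ALDH4A1 rose against parental (log2 fold change 1.36, adjusted p = 0.00766) and TalaR-DF cells (1.31, adjusted p = 0.0172). Both calls held without TalaR-M replicate 2, at 1.07 and 1.02, but that against TalaR-DF cells was lost without TalaR-DF replicate 1 or 3 (adjusted p of up to 0.0754). ALDH9A1, which acts on aminoaldehydes, fell in TalaR-M cells (log2 fold change -1.01, adjusted p = 0.035), and at -0.65 was short of 2-fold without replicate 2, 1 of the 7 among 9 single-library omissions that lost the call. ALDH6A1, an enzyme of valine breakdown, fell in TalaR-DF cells (log2 fold change -1.03, adjusted p = 0.0325), a call lost in 6 of 9 omissions, those of parental and TalaR-DF libraries (adjusted p of up to 0.112). ALDH16A1 (1.20, adjusted p = 0.106, and 0.56 without replicate 2) and ALDH18A1 (-0.28, adjusted p = 0.451), the latter an enzyme of proline synthesis, did not pass in TalaR-M against parental cells. ALDH18A1 was highest in TalaR-DF libraries, without overlap and under 2-fold. Its log2 fold change was 0.71 in TalaR-DF against parental cells (adjusted p = 0.114) and -0.99 in TalaR-M against TalaR-DF cells (adjusted p = 0.0486). ALDH5A1 and ALDH7A1 were not called in any comparison, with log2 fold changes between -0.23 and 0.48.

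Other genes of aldehyde and alcohol metabolism, a list of 29, were also counted, and 20 of them were tested. In TalaR-M against parental cells 7 were called higher and 1 lower, with a median log2 fold change of 0.81, beside 5.53% and 7.72% of all genes. In TalaR-DF against parental cells 3 were higher and 1 lower (median -0.02, beside 2.25% and 7.49% of all genes), and in TalaR-M against TalaR-DF cells 8 were higher and none lower (median 0.61, with 1 lower at an unadjusted p under 0.05 in limma), beside 5.29% and 1.64% of all genes. Without replicate 2, TalaR-M cells had 8 higher and 1 lower against parental cells and 9 higher against TalaR-DF cells, beside 6.78%, 7.07% and 6.96% of all genes in that fit. AKR1B10, an aldo-keto reductase that reduces retinaldehyde and other aldehydes, was at 0 in parental libraries, at 3.29, 3.19 and 3.02 log2 CPM in TalaR-M and at 2.16, 2.05 and 2.01 in TalaR-DF libraries. Like ALDH3A1 it was highest in TalaR-M and intermediate in TalaR-DF libraries without overlap, at least 8.98-fold and 4.21-fold above parental cells (adjusted p = 1.015e-06 and 1.475e-05). The parental values of AKR1B10 likewise show no spread, which these p-values therefore do not measure. MAOA, an amine oxidase whose products are aldehydes, was at 0 in parental cells and rose at least 14.9-fold in TalaR-M cells, and MAOB, which was tested through its TalaR-M libraries alone, was at least 3.32-fold higher there. In TalaR-DF cells MAOA was at the threshold (at least 2.00-fold), and that call was lost on omitting any parental or TalaR-DF library (6 of 9 omissions, with adjusted p-values of up to 0.07). AKR1C3, PTGR1 and AKR1C1, reductases of carbonyl compounds, rose in TalaR-M cells by 1.22, 1.34 and 1.96 on the log2 scale, and CBR3, another reductase, was higher by at least 1.71. CBR3 was likewise tested through its TalaR-M libraries alone, so that the calls of MAOB and CBR3 in the counts above are a description. The bound for CBR3 was 1.12 without replicate 2, and its call was lost on omitting any parental library (adjusted p of up to 0.072). AKR1C1 is uncertain, since reads could be shared with the nearly identical AKR1C2. GSTA4, a glutathione transferase for lipid aldehydes, was called higher in TalaR-DF cells (1.26, adjusted p = 0.017), a call lost in 5 of 9 omissions (0.95 without parental replicate 3, and adjusted p-values of up to 0.0697 without parental replicate 1 or a TalaR-DF library), and measured 0.82 (adjusted p = 0.0729) in TalaR-M cells, and the difference between the resistant groups did not pass (adjusted p = 0.305). AKR1B1 was higher in TalaR-M than TalaR-DF cells by 1.04, or by 0.71, under 2-fold, without replicate 2, and lost its call in 7 of 9 omissions. AKR7A3, an aflatoxin aldehyde reductase, fell in both, by 2.39 and 2.53 on the log2 scale.

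**Figure D4:**
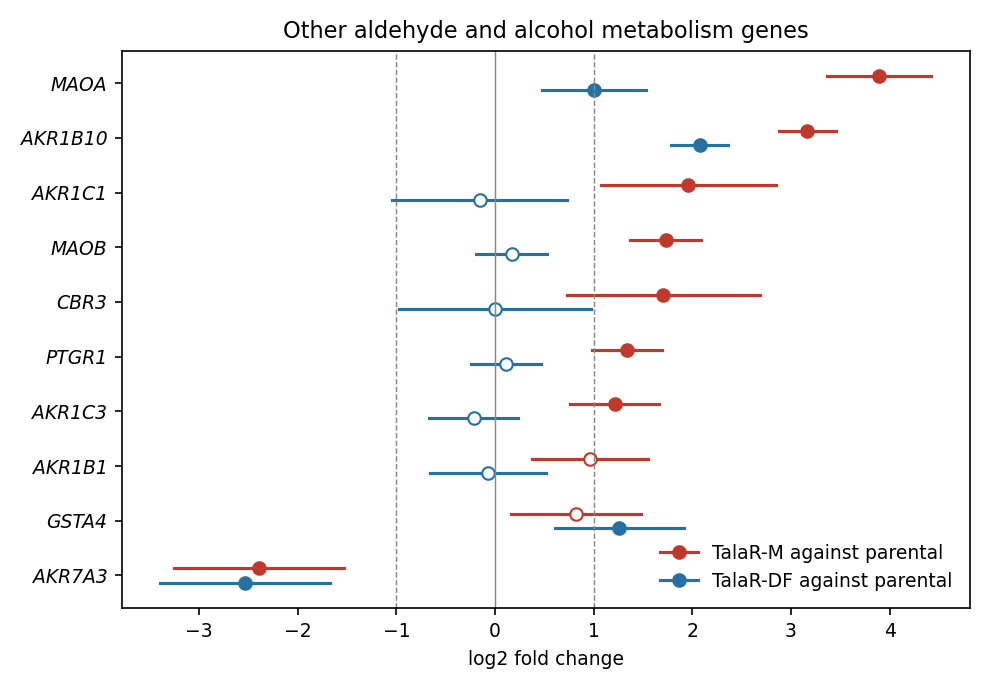
Log2 fold change against parental cells (x axis) of the other aldehyde and alcohol metabolism genes called in at least 1 comparison (y axis), in TalaR-M (red) and TalaR-DF cells (blue), with 95% intervals of the limma fit, filled points for genes called and dashed lines at 2-fold. MAOA and AKR1B10 lead in TalaR-M cells, and AKR7A3 lies below 0 in both groups.

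The retinoid pathway around ALDH1A2 and ALDH1A3 was covered by a list of 30 genes, with 21 tested. In TalaR-M against parental cells 1 was called higher and 3 lower, in TalaR-DF against parental cells none higher (1 at an unadjusted p under 0.05 in limma) and 3 lower, and in TalaR-M against TalaR-DF cells 3 higher and 1 lower. Among all genes these shares were 5.53% and 7.72%, 2.25% and 7.49%, and 5.29% and 1.64%. Without replicate 2 the genes called higher numbered 1, 0 and 3, beside 6.78%, 2.73% and 6.96% of all genes, and those called lower 2, 4 and 0, beside 7.07%, 8.63% and 1.4%. DHRS9, a retinol dehydrogenase that supplies retinaldehyde, fell by 2.15 in TalaR-M and 1.81 in TalaR-DF cells on the log2 scale (adjusted p = 0.000243 and 0.000804). RDH10, another supplier of retinaldehyde, fell by 1.34 in TalaR-M cells (adjusted p = 0.00942), which without replicate 2 became -0.98 and missed 2-fold, and the call against TalaR-DF cells (-1.25) was likewise lost (-0.90), as in 5 other omissions, of parental replicates 1 and 2 and each TalaR-DF library. The receptor RARG fell by 1.14 in TalaR-M cells, and the retinol importer STRA6 and the retinoid-responsive RARRES1 fell by 1.18 and 1.47 in TalaR-DF cells. STRA6 was higher in TalaR-M than TalaR-DF cells by 1.20, a call lost in none of 9 omissions. That call was lost in at least 1 alternative fit (adjusted p of up to 0.0504). RARRES3 was higher in TalaR-M than TalaR-DF cells by 1.76, or by 1.13 without replicate 2. It was not called without any 1 of the parental or TalaR-DF libraries (adjusted p of up to 0.137). In TalaR-DF against parental cells RARRES3 was lower without overlap (-1.42, adjusted p = 0.0702). That change was not called with all libraries, and was called without replicate 2 (adjusted p = 1.057e-07). RBP4, a retinol carrier near the floor, measured 1.18 above parental and at least 1.19 above TalaR-DF levels in TalaR-M cells, whose libraries alone carried it past the filter on low values. Both calls of RBP4, which are a description in the counts above, were lost without replicate 2 (0.89 and 0.90), and in 5 and 8 of 9 omissions in all. CYP26B1, which degrades retinoic acid, measured 3.64, 1.30 and 3.73 log2 CPM in TalaR-M libraries beside 1.59, 1.59 and 2.14 in parental libraries. It was not called with all libraries (1.12, adjusted p = 0.195) and was called without replicate 2 (1.92, adjusted p = 1.972e-06).

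For the folate cycle, in which ALDH1L1 and ALDH1L2 act, 27 of 28 listed genes were tested. TYMS (thymidylate synthase) rose 2.59-fold in TalaR-M cells (log2 fold change 1.37, adjusted p = 0.00142). SHMT2, the mitochondrial serine hydroxymethyltransferase, fell by 1.21 (adjusted p = 0.000963). In TalaR-DF cells FOLR1, a folate receptor, was listed at 0 in all 3 libraries, at least 4.68-fold lower than in parental and 4.90-fold lower than in TalaR-M cells. Over the tested genes of this list, log2 fold changes had a median of 0.36 in TalaR-M and 0.27 in TalaR-DF cells against parental cells, and -0.13 between the resistant groups. Without replicate 2 the medians that involve TalaR-M cells were 0.16 and -0.0042.

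For each of the 4 genes called, the genes of most similar profile were sought among 1738 genes with a mean of at least 3 log2 CPM and a range of at least 1 on the log2 scale, over the 8 libraries other than TalaR-M replicate 2. These libraries fall into 3 groups, so that Pearson's r is a description of group levels above all, and 20, 18, 50 and 14 genes exceeded 0.99 for ALDH1A2, ALDH1A3, ALDH2 and ALDH3A1. The closest to ALDH1A2 were SERPINB1 (a protease inhibitor, r = 0.995), CYTH4 (0.994) and SLC16A6 (0.994). The closest to ALDH1A3 were EMP1 (an epithelial membrane protein), FIGNL1 (an ATPase of recombination repair) and BACE2 (a protease), each at 0.996. ALDH2 was followed by ARHGEF2 (0.999), CSRP1 (0.998) and SMIM14 (0.998), and ALDH3A1 by MYLK (myosin light chain kinase, 0.995), UNC13D (0.994) and DUSP1 (a MAP kinase phosphatase, 0.994). Over all 9 libraries r was lower for 11 of the 12, between 0.611 (MYLK) and 0.970 (CYTH4), and 0.996 for UNC13D.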

How the data were processed

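The 9 PSN1 libraries of the parental, TalaR-M and TalaR-DF groups, 3 per group, were analysed. Poly(A) RNA had been sequenced by the authors from stranded libraries with paired reads. The deposited values are log2 CPM with a small prior count, and values under 0 were set to 0, which was read from the values themselves. The submitters' processing notes name hg38, and the aligner, counter and annotation are not given in the sources used here. Whole reads were recovered for depth and for the reads behind single genes, and were not tested (100% of values under 50 CPM were whole within 0.01). Where a group was at 0, folds were computed against 1 CPM as lower bounds.

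Tests used limma 3.58.1 (R 4.3.3) and genes that exceeded 1 CPM in 3 or more libraries, in 1 model with 3 groups and a mean-variance trend, with Benjamini-Hochberg adjustment over all genes. The code was tested on simulated data. With 3 against 3 libraries an exact permutation p cannot go below 0.1, so none was used. Lengths came from GENCODE 44. Named genes were all members, the other aldehyde dehydrogenases, some markers, and the 3 most correlated genes per called member. From the other lists, genes called with all libraries were named. CYP26B1, called without TalaR-M replicate 2, and AKR1C2, for its likeness to AKR1C1, were named too. A result of the folate list is not reported here. The members and lists were chosen with earlier results of these data known. Alternatives covered pseudocounts, filters, scaling, trend, array weights, replicate block, groups fitted, fold threshold and leaving out each library. The design allowed for linear values, but the deposited ones were already on the log2 scale.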

Additional observations from a re-analysis of the deposited data

How the results depend on the processing

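Over 412 alternative values of the members' fold changes, 385 kept their direction and their side of the threshold, 16 lost a call, 6 gained one and 5 turned direction. Adding 8 CPM to the values left 711 genes called in TalaR-M and 426 in TalaR-DF cells against parental cells and 272 between the resistant groups, and 2, 1 and 0 of the ALDH genes. That sum lowers the fold of genes near the floor by construction, and it took the changes of ALDH1A2 (-0.78) and of ALDH3A1 between the resistant groups (0.93) below 2-fold. ALDH2, which was not near the floor, also lost its call in TalaR-M against parental cells. With no fold threshold, 2938, 2315 and 1502 genes were called, in the same order, and 5 ALDH genes in TalaR-DF against parental cells and 3 between the resistant groups. When the resistant groups were fitted without parental libraries 484 genes were called between them, and a minimum of 5 CPM in 3 libraries, under which ALDH1A2 was not tested, left 1 ALDH gene in TalaR-DF against parental cells (887 of 10725 genes). Array weights, like leaving out TalaR-M replicate 2, gave 2 ALDH genes in TalaR-M against TalaR-DF cells and 3 in TalaR-DF against parental cells (1037 and 1415 of 12471 genes with the weights). Adding 1 CPM took ALDH3A1 in TalaR-DF against parental cells past 2-fold (1.42). Median rescaling removed a shift of -0.36 from TalaR-M replicate 2 and turned no ALDH gene.

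Among the members, leaving out 1 library turned the direction of uncalled changes only: ALDH1B1 in TalaR-M against parental cells (-0.0016 without parental replicate 2, -0.0335 without TalaR-M replicate 1, and up to 0.1012), ALDH3A2 in the same comparison (-0.0744 without TalaR-M replicate 1, and up to 0.088), ALDH1L2 in TalaR-M against TalaR-DF cells (-0.1058 and -0.0835 without TalaR-M replicates 1 and 3, and up to 1.1494). Among the other aldehyde dehydrogenases, 5 uncalled changes turned: without TalaR-M replicate 2, ALDH5A1 in TalaR-M against TalaR-DF (0.093) and ALDH18A1 in TalaR-M against parental cells (0.0674), and without another library ALDH5A1 in TalaR-M against parental (-0.0058), ALDH4A1 in TalaR-DF against parental (-0.0739) and ALDH6A1 in TalaR-M against TalaR-DF cells (-0.1341). The order by level changed in 6 of 21 places with the longest transcript and in 7 with the coding length, an alternative chosen after seeing the data, as was leaving out single libraries for the genes outside the members, which lost 3 of 4 calls of other aldehyde dehydrogenases at least once, 5 of 11 in the retinoid and 5 of 20 in the aldehyde list.

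Deviations from group means correlated at -0.417 to 0.217 between same-numbered libraries and at -0.484 to 0.461 between differently numbered ones. Whether equal numbers mark a shared batch cannot be told from these values. Deviations within a group are tied to each other, and TalaR-M replicate 2 stood apart. With a replicate block 1546, 1132 and 750 genes and 3, 2 and 1 ALDH genes were called, and of the members' calls that of ALDH2 in TalaR-M against parental cells alone was lost (log2 fold change -1.07, adjusted p = 0.0656). Amounts under 1 CPM cannot be told from 0, since the deposited values stop there, and 1 CPM stood for at least 6.97 reads.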
